A study of Homo sapiens with 5 samples.

Results

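The genes of the human proteasome were followed in leukaemia cells that had grown in 2 organs of the mouse. Members were the protein-coding human genes whose symbol begins with PSMA, PSMB, PSMC, PSMD, PSME or PSMF and that had at least 10 counts summed over the 5 libraries. Of 46 such genes among the 65217 gene identifiers of the deposited gene table, 44 were members. The first gene inside that limit was PSMC3IP, with 1079 to 1405 counts per library. Just outside it were PSMA8, the testis form of an alpha subunit, with 1, 1 and 0 counts in brain and 0 in both spleen libraries, and PSMB11, the thymus form of a beta subunit, with 2 counts in all, both in spleen replicate 1. The symbol also took PSMC3IP, a meiotic recombination factor, and PSME3IP1, a partner of PSME3, which are not proteasome subunits.

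The cells were REH, a long-established cell line from human acute lymphoblastic leukaemia of precursor B cells, with the ETV6-RUNX1 (TEL-AML1) fusion. They were transplanted into NSG (NOD.Cg-PrkdcscidIl2rgtm1Wjl/SzJ) mice aged 6 to 10 weeks, a strain without mature T, B and natural killer cells, so both groups shared line, host and treatment and differed in the organ of recovery. The brain group (3 libraries, cells from the leptomeninges) and the spleen group (2 libraries) each held density-gradient purified cells, with RNA of 5 mice pooled per library. Per the labels, a replicate number marks 1 of 3 occasions, so p-values measure the spread between pools made on different occasions, not between animals, and 1 line is not a sample of patients.

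The proteasome breaks down proteins marked with ubiquitin. Its barrel-shaped core, the 20S particle, is built of rings of alpha subunits, which gate the entrance, and beta subunits, of which PSMB5, PSMB6 and PSMB7 carry the active sites. The 19S regulatory particle docks on the core. Its ATPases (PSMC genes) unfold substrates, and its other subunits (PSMD genes) bind and remove ubiquitin. In lymphoid cells and under interferon, PSMB8, PSMB9 and PSMB10 can take the places of PSMB5, PSMB6 and PSMB7 to form the immunoproteasome, which is known for making peptides that MHC class I molecules present, and PSME1 with PSME2 forms an activator cap that is induced with them.

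Library totals were 38387991 to 48764202 estimated counts on human genes, and the least abundant member still had over 1000 counts in each library. Of the 10 precursor B cell markers, 9 reached 1 CPM (counts scaled to the library total) and VPREB1 was at 0 counts, and the list summed to 5700 to 5810 CPM in brain and 6400 to 6790 in spleen. No T cell or erythroid marker reached 1 CPM, CD3D was at 0 counts, and 3 of 5 myeloid markers did (list sums 28.5 to 39.4 CPM in brain, 18.3 to 22.9 in spleen, most of it MPO), as did 2 of 4 neural markers (18.4 to 20 and 15.2 to 17.8 CPM). Mouse transcripts took 2.58% to 5.70% of the estimated counts in brain and 6.33% and 8.87% in spleen, so the share of host RNA moved with the groups. The part of these values in the results was not tested.

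Of the 44 members, all of which passed the filter on low counts, 5 were lower in brain by edgeR's quasi-likelihood test at a Benjamini-Hochberg adjusted p under 0.05, and 0 were higher. The 5 were the ATPase genes PSMC2, PSMC3 and PSMC5 and the core genes PSMA6 and PSMB6. They made up 11.4% of members. Of all 20419 genes tested, 3.50% were lower, 6.01% higher and 9.51% either, and of the 6956 tested genes whose mean CPM was at least that of the lowest member, 6.45% were lower, 6.60% higher and 13.1% either. At an unadjusted p under 0.05, 0 members were higher and 20 were lower, where 11.3% of all genes tested and 18.9% of the 6956 genes were lower. DESeq2 called 14 members lower and 0 higher, and 7.75% of the 16901 genes to which it gave an adjusted p lower. The median log2 fold change of brain over spleen was -0.25 over the members, 0.00656 over all genes tested, and -0.03 over the 6956 genes of at least that level.

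The direction was shared more widely than the calls. The log2 fold change was below 0 for 39 of 44 members (88.6%, against 49.3% of all genes tested and 54.2% of the 6956 genes), and every brain library lay below every spleen library for 21 of 44 (47.7% of members, 19.5% of all genes tested, 26.9% of the 6956 genes). The opposite order held for 1 member, PSMC3IP (23.3% of all genes tested, 23.9% of the 6956 genes). All 14 core and all 17 subunits of the 19S particle were below 0. With DESeq2 size factors in place of TMM scaling, 41 of 44 members were below 0 and the same 5 genes were called. In bulk libraries, a lower level in each cell and fewer cells with a high level cannot be told apart.

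The spleen libraries did not contribute equally. Spleen replicate 1 was the highest of the 5 libraries for 32 of 44 members and brain replicate 2 the lowest for 23. Summed over members, counts were 0.612%, 0.596% and 0.646% of all counts in brain replicates 1 to 3, and 0.810% and 0.708% in spleen replicates 1 and 2. These shares did not overlap between the sites, yet the 2 spleen libraries lay further from each other than any 2 brain libraries. The median log2 difference of spleen replicate 1 over spleen replicate 2 was 0.28 over the members, 0.42 over the core, 0.12 over the 19S subunits and 0.38 over the immunoproteasome genes, against 0.0055 over all genes. Without spleen replicate 1, 0 members were called by edgeR (10 at an unadjusted p under 0.05), 34 of 44 were below 0, the median was -0.14, and 1.36% of all genes tested were lower. Without spleen replicate 2, 13 were called lower, against 3.87% of all genes tested, and the median was -0.36. Without brain replicate 1 or brain replicate 2, 0 were called (14 at an unadjusted p under 0.05 in each case), with medians of -0.24 and -0.20. By adjusted p, 0.728% and 1.25% of all genes were lower. The counts of 10 and 14 have no share of all genes at the same unadjusted threshold beside them. In the main fit 11.3% of all genes tested and 18.9% of the 6956 genes were lower at that edgeR threshold. Without brain replicate 3, 4 members were called (PSMB2, PSMB6, PSMC5 and PSMD8), against 2.27% of all genes. With the occasion as a replicate block, 11 members were lower and 0 higher, against 3.97% of all genes tested that were lower. The 11 were the 5 genes above with PSMA3, PSMA7, PSMB1, PSMB2, PSMB3 and PSMD8. That fit takes the replicate numbers from the sample titles, while the spleen libraries carry other numbers in the deposited column names, so which brain and spleen libraries share an occasion is not certain. The mouse share was the higher of the 2 in spleen replicate 2.

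**Figure D1:**
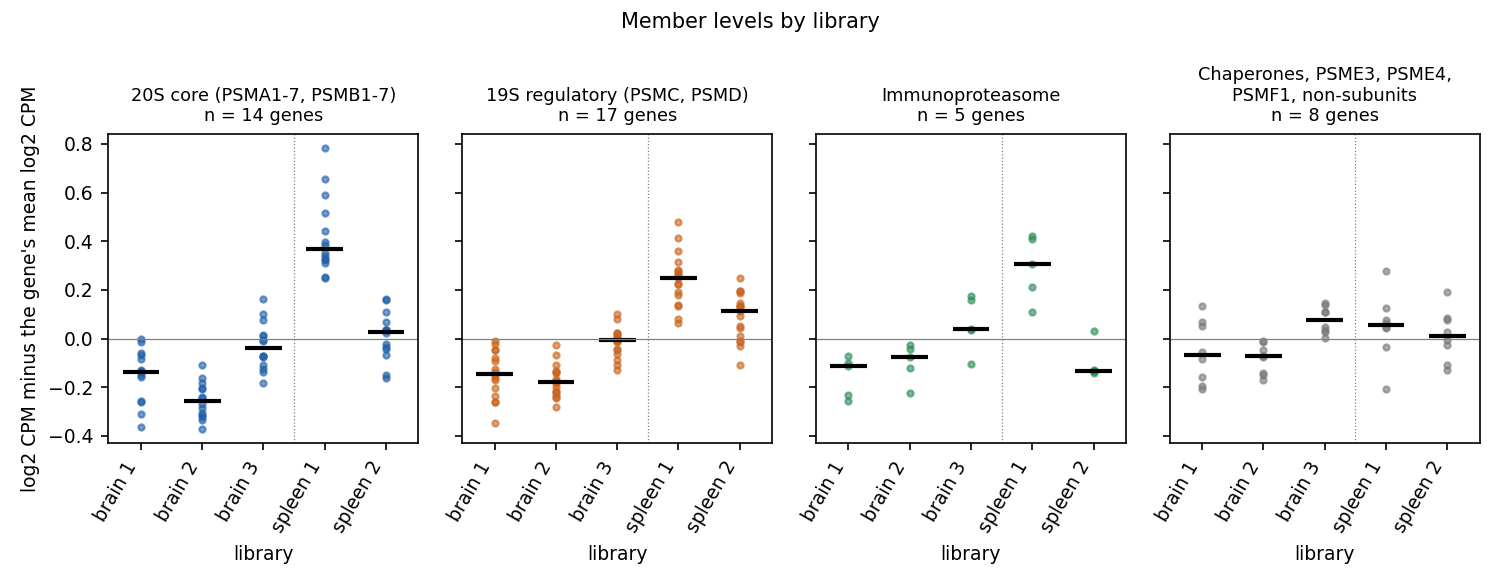
Points give each member's log2 CPM minus its own mean log2 CPM over the 5 libraries (y axis) in each library (x axis), in panels for the 14 core, 17 regulatory, 5 immunoproteasome and 8 other genes, with black bars at the panel medians. Core genes stand highest in spleen replicate 1 (14 of 14), and of the 8 other genes 1, PSMD9, does.

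The 6 ATPase genes of the 19S particle held 3 of the 5 calls and the 14 core genes held 2. With DESeq2 the ATPase genes held 3 and the core 8 of 14 calls, and with the replicate block 3 and 7 of 11. Of all genes, 3.50%, 7.75% and 3.97% were called lower in these fits, and no difference between the classes was tested. The 6 ATPases form the ring that pulls substrates into the core. PSMC3 (ENSG00000165916, GRCh38 chromosome 11, 47418769 to 47426473) stood at 173.6, 178.3 and 189.8 CPM in brain against 289.8 and 227.5 in spleen. All 3 brain libraries were below both spleen libraries, with spleen replicate 1 well above replicate 2. Its log2 fold change was -0.52 (SE 0.120, edgeR adjusted p = 0.0318), a level 30.2% lower by the fit. Without spleen replicate 1 it was -0.34 and not called (adjusted p = 0.144), and without spleen replicate 2 it was -0.69 (adjusted p = 0.0104). PSMC2 (ENSG00000161057, chromosome 7, 103328570 to 103370346) stood at 71.4, 68.2 and 73.3 CPM in brain against 96.0 and 90.2 in spleen (log2 fold change -0.39, SE 0.0922, edgeR adjusted p = 0.0330). PSMC5 (ENSG00000087191, chromosome 17, 63827152 to 63832026) stood at 146, 156 and 169.8 CPM against 205 and 208 (log2 fold change -0.39, SE 0.101, edgeR adjusted p = 0.0445). For PSMC2 and PSMC5 the spleen libraries were close together, and the log2 fold changes were -0.35 and -0.41 without spleen replicate 1, where neither was called (adjusted p = 0.126 and 0.103).

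PSMC1, PSMC4 and PSMC6 did not pass. In the main fit the smallest difference was that of PSMC6, at 113, 104 and 116 CPM in brain against 136 and 106 in spleen, where the groups overlapped (log2 fold change -0.13, 95% interval -0.41 to 0.15). With transcript estimates summed per gene its log2 fold change was -0.425, also not called (edgeR adjusted p = 0.0853). Over the 6 ATPase genes the median log2 fold change was -0.33. PSMC1 values carry the further limit that the pseudogene PSMC1P1 took between 63 and 714 counts per library, and reads of near-identical sequence are shared out by a model.

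The promoter windows of the 3 called ATPase genes are shown because these genes were called lower in brain. Whether they vary together was not tested. All 3 windows hold a CCAAT box, the letters bound by nuclear factor Y, given in capitals. For each gene a start site with these letters in its window was chosen, so their presence here is no result. The PSMC2 and PSMC5 windows lie inside the spans of the genes given above. The windows run 5′ to 3′ on the gene's strand from base -130 to base -1 before a RefSeq start site (GRCh38.p14), at chr7:103347513-103347642 (plus strand), chr11:47426440-47426569 (minus strand) and chr17:63827301-63827430 (plus strand).
PSMC2: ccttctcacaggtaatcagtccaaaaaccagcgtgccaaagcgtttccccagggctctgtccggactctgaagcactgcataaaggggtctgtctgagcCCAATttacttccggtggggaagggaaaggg
PSMC3: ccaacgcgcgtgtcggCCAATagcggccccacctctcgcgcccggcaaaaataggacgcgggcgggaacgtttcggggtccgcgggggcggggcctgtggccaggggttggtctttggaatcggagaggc
PSMC5: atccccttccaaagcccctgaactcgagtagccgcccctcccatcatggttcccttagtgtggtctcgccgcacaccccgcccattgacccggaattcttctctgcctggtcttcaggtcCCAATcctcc
Windows of 300 bases (250 before the start and 50 from it) were matched for 39 of the 44 members, the others being PSMA7, PSMB1, PSMB6, PSMB7 and PSMD4. Searched on both strands, CCAAT was present for 20 of 39 members, 7 of 10 core genes, 8 of 16 regulatory genes of the 19S particle and 1 of 5 immunoproteasome genes, against 39.7% of all 27303 genes with such windows. The core of the antioxidant response element, TGACNNNGC, which NFE2L1 and NFE2L2 bind and which is known from proteasome promoters, was present for 13 of 39 members (16.1% of all genes). These included 2 of 10 core genes (PSMA4 and PSMB3) and 5 of 16 regulatory genes of the 19S particle (PSMC4, PSMC5 and PSMD3 among them). They also included 3 of 5 immunoproteasome genes (PSMB9, PSME1 and PSME2). These matches are letters in a window and show no binding, and among called genes PSMA6 held neither motif in its window.

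Of the 11 non-ATPase subunits of the 19S particle, 0 passed the edgeR threshold, although all 11 log2 fold changes were below 0 (median -0.26), 7 had an unadjusted p under 0.05 and DESeq2 called 3 lower. Every brain library lay below every spleen library for 8 of the 11, against 19.5% of all genes tested and 26.9% of the 6956 genes. At an unadjusted edgeR p under 0.05, 11.3% and 18.9% of those genes were lower, and DESeq2 called 7.75% of its genes lower. PSMD8, a subunit of the lid, had the lowest value, at 101, 112 and 128 CPM in brain against 170.4 and 141 (log2 fold change -0.46, edgeR adjusted p = 0.0600; 0.0349 with the replicate block). PSMD2, a large scaffold subunit and receptor for ubiquitin-like domains, stood at 232, 228 and 242 CPM against 309.5 and 285 (log2 fold change -0.35, edgeR adjusted p = 0.0565). For both genes the groups did not overlap. PSMD6, another lid subunit, was nearest to 0, at 92.0, 90.6 and 94.0 CPM in brain against 100.4 and 97.8 in spleen (log2 fold change -0.10, 95% interval -0.31 to 0.10). PSMD12, also of the lid, stood at 69.0, 60.9 and 70.7 CPM in brain against 81.3 and 76.1 in spleen, with no overlap (log2 fold change -0.24, edgeR adjusted p = 0.190). The remaining subunits, PSMD1, PSMD3, PSMD4, PSMD7, PSMD11, PSMD13 and PSMD14, lay between these values.

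**Figure D2:**
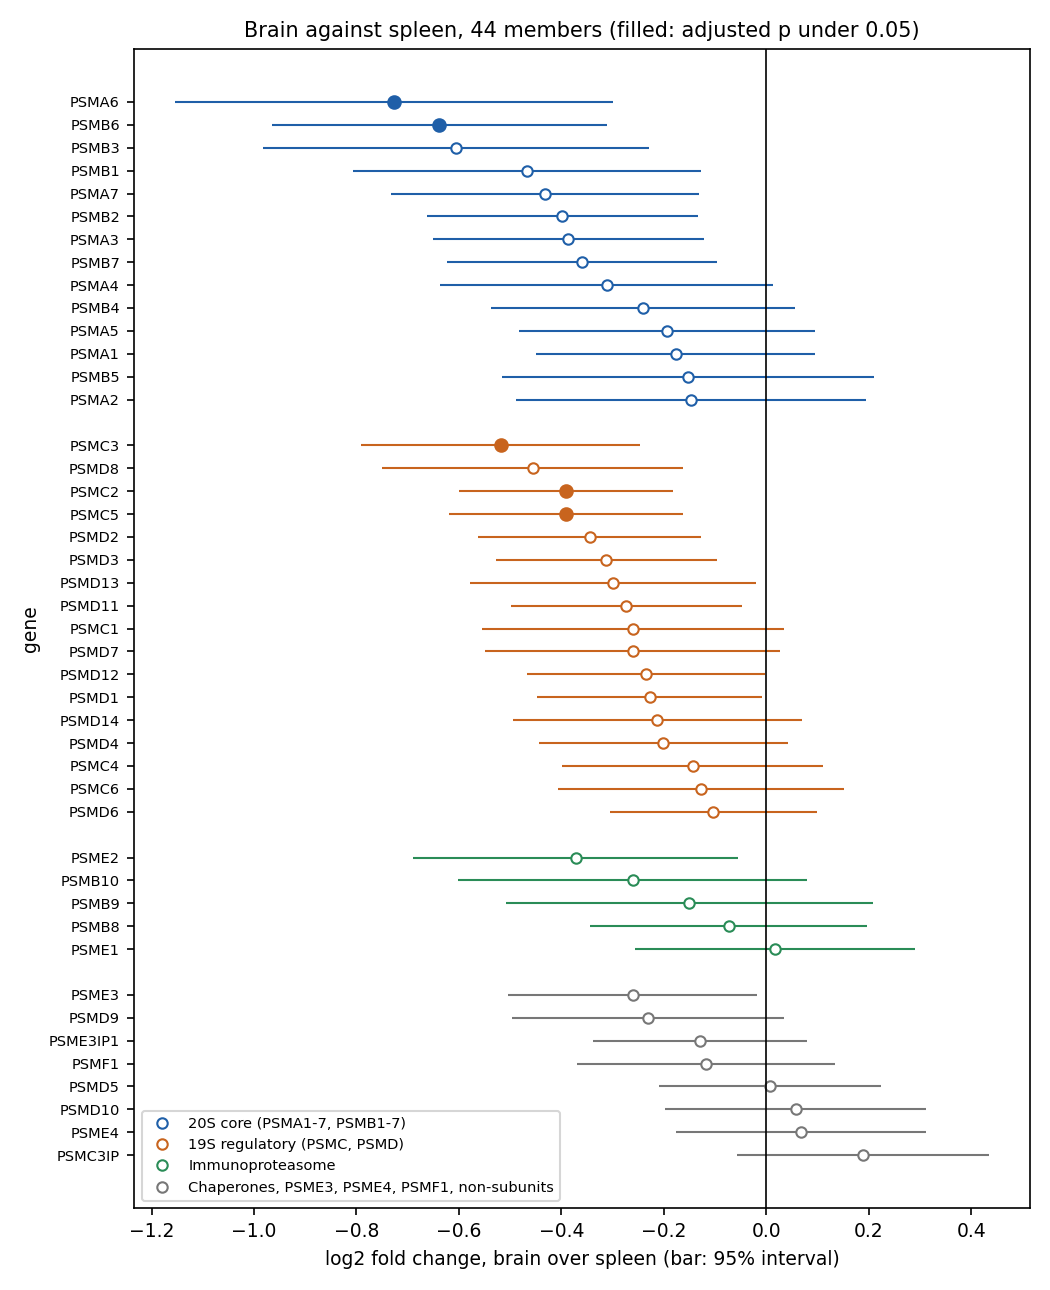
Points give the log2 fold change of brain over spleen (x axis) for each of the 44 members (y axis), with 95% intervals of the edgeR fit, coloured by class and filled where the adjusted p was under 0.05. All core and 19S points lie left of 0, from -0.73 for PSMA6 to -0.10 for PSMD6, the immunoproteasome genes reach 0.02 (PSME1) and the other genes 0.19 (PSMC3IP).

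Among the 7 alpha subunits, 1 was called lower, and all 7 log2 fold changes were below 0 with a median of -0.31. PSMA6 (ENSG00000100902, chromosome 14, 35278633 to 35317493) was the most abundant member and had the lowest log2 fold change of all. It stood at 571, 529 and 604 CPM in brain against 1179 and 702 in spleen. The brain libraries were close together and below both spleen libraries, while spleen replicate 1 was far above the rest. The log2 fold change was -0.73 (SE 0.189, edgeR adjusted p = 0.0453), and -0.31 without spleen replicate 1 (adjusted p = 0.177). PSMA2 had the smallest difference, at 156, 133 and 165 CPM in brain against 194 and 141 in spleen, and its groups overlapped (log2 fold change -0.15, 95% interval -0.49 to 0.20; 0.09 without spleen replicate 1). PSMA5 stood at 117, 111 and 137.5 CPM in brain against 153 and 126 in spleen, also overlapping (log2 fold change -0.19). PSMA1, PSMA3, PSMA4 and PSMA7 did not pass, although PSMA3 and PSMA7 were called lower with the replicate block and with DESeq2. Over the 7 alpha genes, the median without spleen replicate 1 was -0.09, with 6 of 7 still below 0.

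The 7 constitutive beta subunits gave 1 call and a median of -0.40, and all 7 were below 0. PSMB6 (ENSG00000142507, chromosome 17, 4796144 to 4798502), which carries the caspase-like active site, stood at 99.6, 103 and 122 CPM in brain against 193 and 143 in spleen. No brain library reached a spleen library. The log2 fold change was -0.64 (SE 0.144, edgeR adjusted p = 0.0289), 35.8% lower by the fit, and -0.42 without spleen replicate 1 (adjusted p = 0.134). PSMB7, the trypsin-like subunit, stood at 135, 133 and 136 CPM against 194 and 152, again without overlap, but did not pass (log2 fold change -0.36, edgeR adjusted p = 0.0887). Leaving out spleen replicate 1 gave -0.185, leaving out spleen replicate 2 gave -0.53 and a call (adjusted p = 0.0249), and DESeq2 also called it (adjusted p = 0.0322). PSMB5, the chymotrypsin-like subunit and main target of bortezomib, stood at 65.4, 63.9 and 81.2 CPM in brain against 91.1 and 64.9 in spleen. Its groups overlapped, its log2 fold change was -0.15 (95% interval -0.52 to 0.21), and the value was 0.10 without spleen replicate 1. PSMB4, the most abundant beta subunit per length, stood at 215, 222 and 239 CPM against 304 and 229 and did not pass (log2 fold change -0.24; -0.03 without spleen replicate 1, and -0.43 with it but without replicate 2). The 3 active-site subunits therefore did not all show the same separation, and the difference between them was not tested. PSMB1, PSMB2 and PSMB3 did not pass, with non-overlapping groups for each, although the replicate block and DESeq2 each called all 3 lower.

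Of the 5 immunoproteasome genes, 0 were called by edgeR or by DESeq2, and 1, PSME2, had an unadjusted p under 0.05. Their median log2 fold change was -0.15, and for none of the 5 did every brain library lie below every spleen library. PSMB8 (ENSG00000204264, chromosome 6, 32840717 to 32844679) stood at 207, 211 and 222 CPM in brain against 250.9 and 198 in spleen (log2 fold change -0.07, 95% interval -0.34 to 0.20). PSMB9 (ENSG00000240065, chromosome 6, 32844136 to 32859851) stood at 98.5, 106.5 and 131 CPM against 143 and 106 (log2 fold change -0.15, 95% interval -0.51 to 0.21). PSMB10 (ENSG00000205220, chromosome 16, 67934506 to 67936864) stood at 105, 107 and 105 CPM against 151 and 102 (log2 fold change -0.26, 95% interval -0.60 to 0.08). In each of these 3 genes, spleen replicate 1 was above all brain libraries and spleen replicate 2 was not. Without spleen replicate 1 their log2 fold changes were 0.10, 0.08 and 0.04, and over the 5 genes the median was 0.08 with 4 above 0. Without spleen replicate 2 the median was -0.36, and PSMB10 and PSME2 were called lower (adjusted p = 0.0253 and 0.0457). The sign of the median of these 5 genes thus rested on spleen replicate 1.

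PSMB8 (minus strand) and PSMB9 (plus strand) lie in the MHC class II region, where their annotated spans overlap. Both also overlap the antisense gene PSMB8-AS1, and the span of TAP1 (32845209 to 32853816, minus strand) lies inside that of PSMB9. PSMB8-AS1 stood at 70.0, 71.4 and 79.0 CPM in brain against 67.5 and 61.0 in spleen. Since the strand setting of the counting is not given in the sources used here, reads of these overlaps cannot be told apart with certainty. Identifiers of alternative haplotypes of that region were not matched to symbols, so reads given to such copies of PSMB8 and PSMB9 would be missing from all values of both genes.

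The activator genes PSME1 and PSME2 are neighbours on chromosome 14, neither was called, and the difference between them was not tested. PSME1 (ENSG00000092010, 24136163 to 24138967) stood at 231, 246 and 279 CPM in brain against 269 and 229 in spleen, with full overlap (log2 fold change 0.02, 95% interval -0.26 to 0.29; -0.0024 with DESeq2 size factors). PSME2 (ENSG00000100911, 24143362 to 24147570) stood at 152, 155 and 186 CPM against 241 and 185 (log2 fold change -0.37, 95% interval -0.69 to -0.05, edgeR adjusted p = 0.135), with brain replicate 3 just above spleen replicate 2. PSME3, which forms a related cap in the nucleus, stood at 149.6, 152 and 177 CPM in brain against 186 and 195.5 in spleen, without overlap (log2 fold change -0.26, edgeR adjusted p = 0.167). PSME4, another nuclear cap, and PSMF1, an inhibitor of the core, did not pass (log2 fold changes 0.07 and -0.12).

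Near the start sites of 4 of these 5 genes lay the core of the interferon-stimulated response element, that interferon regulatory factors bind. It is read as GAAA, then 2 bases of any kind, then GAAA, and is shown in capitals because this is the known route by which interferon raises these genes. The windows run from base -80 to base +20 of a RefSeq start site (GRCh38.p14), at chr6:32844028-32844127 and chr16:67936831-67936930 (minus strand), chr14:24136114-24136213 (plus strand) and chr14:24146591-24146690 (minus strand). Capitals that read TTTC at the left are the motif on the opposite strand. Where a gene had several windows, the first with the motif was printed.
PSMB8: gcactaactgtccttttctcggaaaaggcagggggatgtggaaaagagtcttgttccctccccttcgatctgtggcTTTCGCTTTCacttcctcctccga
PSMB10: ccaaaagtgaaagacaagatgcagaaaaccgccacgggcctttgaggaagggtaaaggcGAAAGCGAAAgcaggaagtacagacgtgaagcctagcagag
PSME1: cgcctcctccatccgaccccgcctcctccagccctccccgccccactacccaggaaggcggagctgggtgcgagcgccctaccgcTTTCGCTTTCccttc
PSME2: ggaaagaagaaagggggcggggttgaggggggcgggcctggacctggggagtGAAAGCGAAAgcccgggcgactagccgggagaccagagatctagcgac
The motif was present in the full windows of 6 of 39 members, these 4 with PSMA4 and PSMB4, in 0 of 16 windows of 19S subunits, and in 4.38% of all genes with windows. PSMB9 had no match in its window, which shares its position with the promoter of TAP1. The interferon-gamma activated site, TTCNNNGAA, was present for 7 of 39 members (9.38% of all genes) and 1 of 5 immunoproteasome genes, PSMB8.

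Genes of the interferon response and of peptide loading were set beside the immunoproteasome genes, and the only call among those named here was 1 higher in brain, where 6.01% of all genes tested were. NLRC5, the transactivator of MHC class I genes, stood at 330.0, 405 and 296 CPM in brain against 229.8 and 246 in spleen (log2 fold change 0.53, edgeR adjusted p = 0.0470), a call that was lost with DESeq2 size factors (adjusted p = 0.0526), with summed transcript estimates (0.122) and without any 1 library other than brain replicate 3 (up to 0.160). The peptide transporter gene TAP1, which shares a promoter region with PSMB9, stood at 158, 162 and 178 CPM in brain against 146 and 124 in spleen without passing (log2 fold change 0.30, edgeR adjusted p = 0.130), and TAP2 had a log2 fold change of 0.06. The transcription factor genes IRF1 and IRF8 did not pass (log2 fold changes 0.13 and 0.25).

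Levels of immunoproteasome genes and of the subunits they replace were set side by side as TPM, the share of human transcripts corrected for transcript length. PSMB8 stood at 268, 284 and 293 TPM in brain and 309.7 and 284 in spleen, and PSMB5 at 89.4, 91.1 and 111.5 against 116 and 102. Their ratio was 2.99, 3.12 and 2.63 in brain and 2.67 and 2.78 in spleen, which overlapped. The ratio of PSMB10 to PSMB7 also overlapped, at 0.694, 0.718 and 0.747 in brain and 0.726 and 0.632 in spleen. PSMB9 over PSMB6 did not overlap, at 1.08, 1.12 and 1.17 in brain and 0.813 and 0.800 in spleen, so that PSMB9 was the more abundant of the pair in each brain library and PSMB6 in each spleen library, without any reads given to unmatched haplotype copies of PSMB9. The spleen libraries were close on this ratio, unlike on the level of either gene. PSME1 over PSME2, which form a cap together, did not overlap either, at 1.34, 1.38 and 1.27 in brain against 0.940 and 1.06 in spleen. The ratios of both genes to PSME3, of the related nuclear cap, did overlap. PSME1 over PSME3 was 3.48 to 4.12 in brain against 3.52 and 2.88 in spleen. PSME2 over PSME3 was 2.6 to 3.24 in brain against 3.74 and 2.72 in spleen. These ratios were not tested, and with 3 against 2 libraries an exact two-sided permutation test cannot go below p = 0.2.

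**Figure D3:**
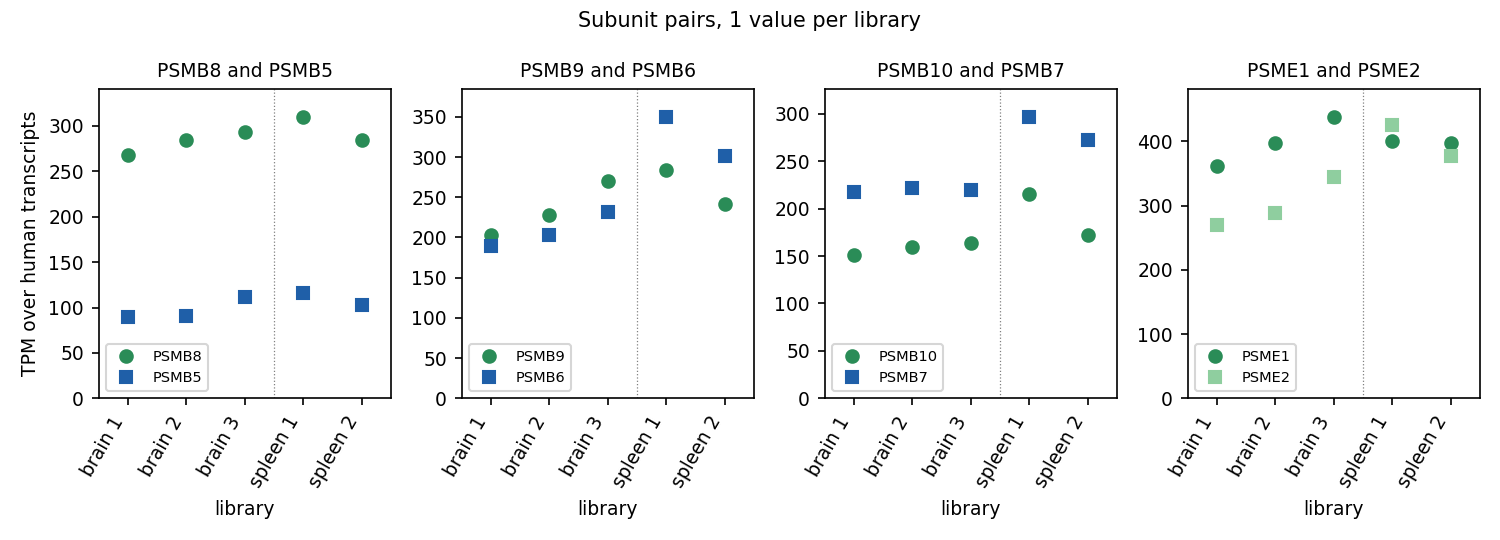
Points give TPM over human transcripts (y axis, from 0) in each of the 5 libraries (x axis) for the pairs PSMB8 and PSMB5, PSMB9 and PSMB6, PSMB10 and PSMB7, and PSME1 and PSME2. PSMB9 lies above PSMB6 in the 3 brain libraries and below it in the 2 spleen libraries, while PSMB8 lies above PSMB5 in all 5.

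Levels per length varied widely within each particle, although its subunits are built in at equal numbers. In the core the mean over the 5 libraries ran from 102 TPM for PSMB5 to 1108 TPM for PSMA6, a ratio of 10.8, with a median of 250.2. Without PSMA6 the highest was PSMB4, at 404 TPM, and the lowest alpha subunit was PSMA5, at 122.5 TPM. In the 19S particle levels ran from 47.2 TPM for PSMC6 to 242 TPM for PSMC3, with a median of 138. Among non-ATPase subunits PSMD2 was highest at 234 TPM and PSMD12 lowest at 47.8 TPM. PSMC4 had a main transcript of like length (1591 against 1590 bases) and similar CPM (93.4 to 118.8 against 103.8 to 136.2), yet stood at 108 TPM. The place of PSMC6 as the lowest is therefore uncertain, and the cause was not tested. The 5 immunoproteasome genes were closer together, from 172 TPM for PSMB10 to 399 TPM for PSME1. PSMD5, a chaperone of 19S assembly, was the lowest member at 20.5 TPM. Summed TPM of the 14 core genes was 3563, 3459 and 3852 in brain and 5468 and 4512 in spleen, and that of the 17 subunits of the 19S particle 1934, 2005 and 2138 against 2422 and 2594. Neither sum overlapped between sites, and spleen replicate 1 was the higher spleen library for the core and the lower one for the 19S particle on this scale.

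**Figure D4:**
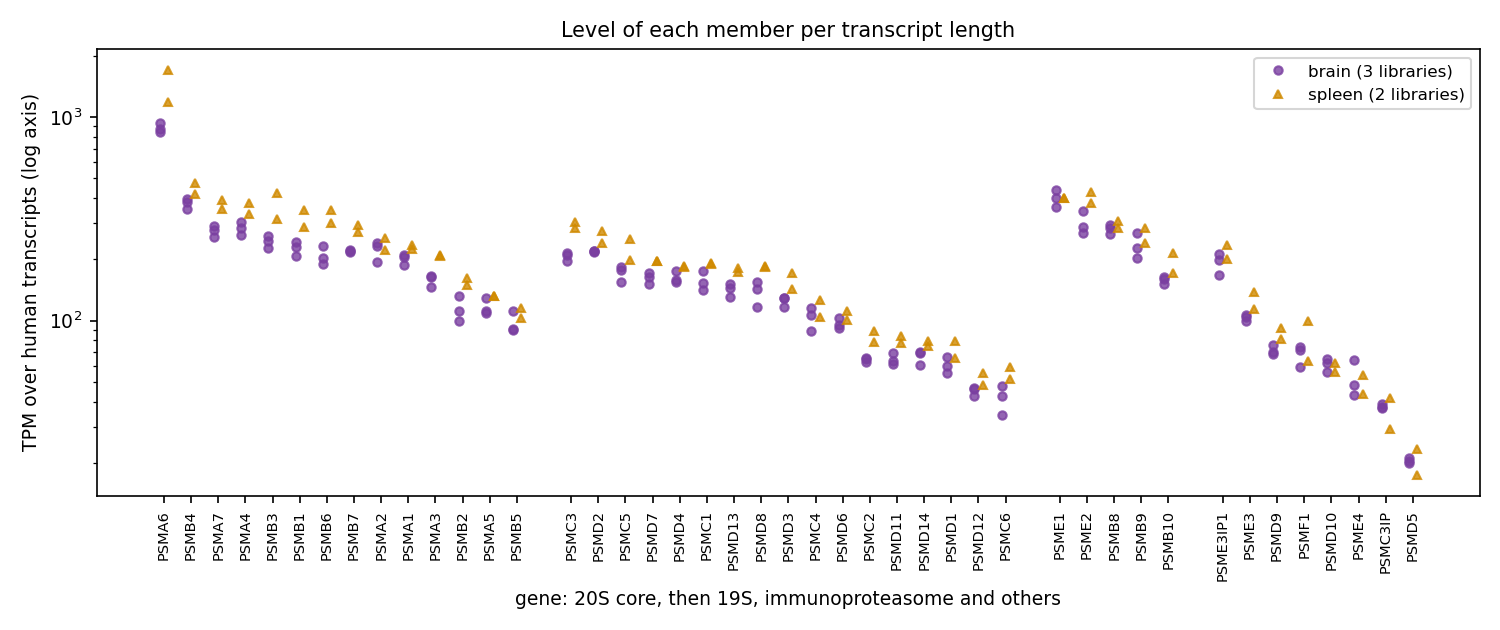
Points give TPM over human transcripts (y axis, log scale) of each of the 44 members (x axis) in the 3 brain libraries (circles) and 2 spleen libraries (triangles), ordered by class and level. PSMA6 stands above all other core genes, at 842 to 929 TPM in brain and 1182 and 1710 in spleen.

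A different split between transcripts at the 2 sites was seen for PSMC3, which was chosen after the values were seen. Its main transcript PSMC3-212 (1373 bases) stood at 138, 158 and 165 TPM in brain and 268 and 248 in spleen, or 70.4%, 75.2% and 77.1% of the gene's TPM against 88.1% and 87.2%. PSMC3-213, a longer coding transcript of 1580 bases, was at 35.3, 20.8 and 29.3 TPM in brain and 18.9 and 15.2 in spleen, and PSMC3-204, which is annotated as a target of nonsense-mediated decay, at 10.5, 11.7 and 11.1 against 6.18 and 6.92. The main transcript was thus lower and both minor transcripts higher in every brain library than in every spleen library. PSMC3 was not alone in this, as the main transcript's share was also lower in every brain library for PSMA6 and PSMB1. PSMA6-201 took 86.6%, 86.8% and 85.9% in brain against 92.3% and 89.2% in spleen. PSMB1-201 took 97.6%, 96.8% and 97.6% against 98.9% and 98.1%. In other members, such as PSMA1, that share overlapped. These splits are model estimates and were not tested. PSMD8 was chosen likewise, with PSMD8-209 at 78.5%, 74.1% and 79.8% of its TPM in brain and 92.0% and 82.2% in spleen. Its second transcript PSMD8-208 overlapped, at 22.7, 34.25 and 28.9 TPM in brain and 9.995 and 28.4 in spleen. The main PSMB8 transcript, PSMB8-202, kept 84.5% to 88.8% of its gene's TPM in all 5 libraries. Over all members, transcripts annotated as retaining an intron took 6.52%, 7.76% and 5.49% of TPM in brain and 5.03% and 6.12% in spleen, which overlapped.

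Across the 44 members the log2 fold change was related to the mean transcript length weighted by level (758 to 3795 bases), with a Spearman rho of 0.29. Across the 6938 tested genes of at least the lowest member's level that had a length, rho was 0.33, and across all 19835 tested genes with a length it was 0.11. Genes of 1 set of libraries are not independent, and these are descriptions.

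Of the 3 chaperones of 19S assembly, 0 passed and 2 had log2 fold changes above 0 (1 with DESeq2). PSMD5 stood at 44.7, 41.1 and 43.96 CPM in brain against 42.1 and 43.9 in spleen (log2 fold change 0.00726, 95% interval -0.21 to 0.22). PSMD10, also known as gankyrin, and PSMD9 did not pass (log2 fold changes 0.06 and -0.23). Neither did PSMC3IP, at 31.1, 28.1 and 30.6 CPM in brain against 24.6 and 27.9 in spleen (log2 fold change 0.19, 95% interval -0.06 to 0.44), the highest value among members, nor PSME3IP1, at 166, 167 and 176 CPM against 185.7 in both spleen libraries (log2 fold change -0.13). No difference between these genes and the subunits was tested.

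In the list of other genes of the pathway, 2 of 33 were lower in brain, 1 was higher and 30 did not pass, with a median log2 fold change of -0.10. Of all genes tested, 3.50% were lower and 6.01% higher, and of the 6956 genes at member level 6.45% were lower and 6.60% higher. Of the 6 assembly genes PSMG3, a chaperone that pairs with PSMG4 in building the alpha ring, was lower, at 31.1, 28.6 and 30.7 CPM in brain against 52.4 and 41.3 in spleen (log2 fold change -0.64, SE 0.121, edgeR adjusted p = 0.0148). POMP, the factor that guides beta ring assembly, did not pass (log2 fold change -0.24, edgeR adjusted p = 0.291). ADRM1, a ubiquitin receptor of the 19S particle without a PSM symbol, was lower, at 81.4, 82.8 and 90.3 CPM against 132 and 107 (log2 fold change -0.49, SE 0.114, edgeR adjusted p = 0.0314). For PSMG3 and ADRM1 no brain library reached a spleen library, and both lost their call without spleen replicate 1 (adjusted p = 0.0631 and 0.149), brain replicate 1 (0.0573 and 0.124) or brain replicate 2 (0.0582 and 0.0973). Of the 13 genes of ubiquitin supply and delivery, 0 passed by edgeR, 2 were lower at an unadjusted p under 0.05 and DESeq2 called 1 lower. At that unadjusted edgeR p, 11.3% of all genes tested and 18.9% of the 6956 genes were lower, and DESeq2 called 7.75% of its genes lower.

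Of the 7 genes listed for control of proteasome expression or location, 0 were lower in brain and 1 was higher, where 6.01% of all genes tested were. NFE2L1, which is processed to an activator when proteasome activity is low, stood at 139.9, 149.5 and 143 CPM in brain against 129.6 and 128 in spleen (log2 fold change 0.16, edgeR adjusted p = 0.312). NFE2L2, the regulator of the oxidative stress response, stood at 52.5, 44.9 and 54.6 CPM against 42.1 and 41.2 (log2 fold change 0.28, edgeR adjusted p = 0.152), and AKIRIN2, which brings proteasomes into the nucleus, at 59.4, 59.4 and 56.98 against 50.7 and 44.3 (log2 fold change 0.30, edgeR adjusted p = 0.0938). All brain libraries lay above both spleen libraries for these 3 genes, none of which passed. That order held for 4 of the 7 genes, against 23.3% of all genes tested and 23.9% of the 6956 genes. VCP, of the same list, had the opposite order (log2 fold change -0.21), and DDI2 was also below 0 (-0.03). BACH1, a repressor that competes at antioxidant response elements, was higher, at 53.2, 48.2 and 50.2 CPM in brain against 31.0 and 34.5 in spleen (log2 fold change 0.63, SE 0.103, edgeR adjusted p = 0.00910).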

How the data were processed

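RNA-seq libraries of REH cells recovered from brain (3) and spleen (2) were compared. Per the submitters' processing notes, bcl2fastq 1.8.4, cutadapt 1.5, kallisto 0.42.4 and DESeq2 were used with GRCh38 and GRCm38. Strandedness of the counting and the sequence of these tools were not given in the sources used here. The authors deposited, per the file headers, kallisto estimated counts and TPM per transcript (human and mouse together), and estimated counts per human gene as whole numbers. A column of no sample (1) was not used. Identifiers were matched to GENCODE 44 (86.36%, with 99.76% of counts).

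Genes were tested here with edgeR 4.0.16 in R 4.3.3 (filterByExpr, TMM scaling, quasi-likelihood F test, site as the only term, 3 residual degrees of freedom), with Benjamini-Hochberg adjustment over 20419 genes and a threshold of 0.05. CPM use TMM-scaled library sizes. TPM were rescaled to human transcripts. SE and 95% intervals come from the fit. The fit was tested on simulated data. Counting error is small at these depths. Named genes were all immunoproteasome members and their counterparts, called members, and the extremes of each class by fold change and TPM, with fixed pathway genes. The result of 1 further listed gene is not reported here. Members and lists were chosen with earlier results of these data known.

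The labels' protocols tie each replicate number to 1 occasion, and brain and spleen replicates 1 and 2 were therefore paired by their titles in an alternative fit, although the column names number the spleen libraries differently (DESeq2 1.42.0 was another). The deviations of same-numbered libraries from their group means correlated at -0.0161 and 0.222 over genes tested.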

Additional observations from a re-analysis of the deposited data

How the results depend on the processing

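Members called by edgeR numbered 5, all lower in brain, and 5 or 4 with DESeq2 size factors, identifiers of 1 symbol summed (no member has more than 1 matched identifier; haplotype copies were not matched) or summed transcript estimates. They numbered 14 with the DESeq2 Wald test, 13 with no filter on low counts and 9 with at least 1 CPM in 2 libraries. Over all genes, 7.75%, 3.46% and 6.01% were called lower in these fits. The replicate block, which left 1 residual degree of freedom, gave 11 members, against 3.97% of all genes. Leaving out 1 brain library gave 0 to 4 members, against 0.728% to 2.27% of all genes. In all 12 alternatives 0 members were called higher. Over all genes tested, calls numbered 1942, 3167 with no filter, and 661 to 1699 without 1 library. Pathway list calls numbered 3, 5 with the DESeq2 Wald test or no filter, and 1 to 5 without 1 library. Without 1 library the median log2 fold change ran from -0.51 to -0.197 for the core, -0.362 to -0.191 for the 19S subunits and -0.355 to 0.0757 for the immunoproteasome genes. PSMD5 and PSME1, near 0, took the opposite sign under DESeq2 size factors (-0.0115 and -0.0024), the DESeq2 Wald test (-0.01 and -0.000792), the replicate block (-0.0057 and -0.0583) and summed transcript estimates (-0.00894 and -0.000706), PSMD5 also with no filter (-0.000976) and the 1 CPM filter (-0.0036), and TAP2 with the block (-0.00166). The block added calls for PSMA3, PSMA7, PSMB1, PSMB2, PSMB3 and PSMD8 and removed none of the 5. Leaving out 1 library gave log2 fold changes of -0.0121 to 0.279 for IRF1, -0.0114 to 0.546 for IRF8, -0.00626 to 0.106 for TAP2, -0.0308 to 0.0443 for PSMD5 and -0.0992 to 0.131 for PSME1. The lowest value (spleen replicate 2 left out) and the highest (spleen replicate 1 left out) were -0.362 and 0.0926 for PSMA2, -0.52 and 0.0419 for PSMB10, -0.38 and 0.105 for PSMB5, -0.239 and 0.101 for PSMB8, -0.355 and 0.0757 for PSMB9, and -0.299 and 0.0548 for PSMC6. With summed transcript estimates PSMC6 was at -0.425, against -0.128 in the main fit. The cause of these changes was not tested.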
